A study of Rattus norvegicus with 6 samples.

Results

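Endoplasmic reticulum-associated degradation (ERAD) was followed through 10 genes: Edem1, Edem2, Edem3, Os9, Sel1l, Syvn1, Herpud1, Derl1, Derl2 and Derl3. They were chosen by name, as core parts of the pathway, when a lower level of Edem1 in these libraries was already known. All 10 were found, each at 1 locus, among the 24579 gene models of the deposited assembly, with 35 of its 60887 transcripts. All 10 had enough reads to be tested, among 15983 genes in all. Edem1's difference between the groups is therefore given as a description. The list was made with earlier results of these data known. Counts of its genes, with or without Edem1, are thus not evidence about the pathway.

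The samples were rat primary pancreatic beta cells, which secrete insulin, purified by fluorescence-activated sorting, with no age or strain of the animals given. Cells of 3 batches were transfected with 30 nM siRNA for 16 h and left to recover for 48 h before RNA extraction. Each batch gave 1 control library, treated with a commercial negative-control siRNA, and 1 knockdown library, treated with siRNA against Nova1, an RNA-binding regulator of splicing. The 6 poly(A) libraries held between 95394043 and 292432076 reads assigned to transcripts, and in each batch the control was sequenced more deeply. The labels do not say whether the batches came from different animals. The p-values of the fit with batch as a block therefore rest on how the knockdown-control difference varied over these batches, moderated by limma across all genes. That variation may be technical.

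ERAD removes proteins that fail to fold in the endoplasmic reticulum. Mannose trimming by the Edem proteins marks a misfolded glycoprotein, and lectins such as Os9 carry it to a membrane ubiquitin ligase built from Sel1l and Syvn1. Herpud1 and the derlins assist the ligase and the passage through the membrane, and the ATPase Vcp pulls the protein out to the proteasome. Proinsulin that misfolds is among the known substrates of this pathway in beta cells, and many ERAD genes are induced by the unfolded protein response.

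The promoters of Edem1, Derl3 and Herpud1 are shown. Edem1 and Derl3 were lower in the knockdown of every batch. Herpud1 was higher in every batch but did not pass the test. Edem3, Sel1l and Syvn1 were also higher in every batch without passing, and their promoters are not shown. Derl3 and Herpud1 are the genes that held the full elements described below. Any relation of these letters to the direction of change was not tested. The RefSeq promoter table, on the assembly GRCr8 and not the Rnor_5.0 build of the expression files, held 8 of the 10 genes and was matched by symbol. The 250 bases before the annotated start are printed, 5′ to 3′ on the gene's strand. Capitals mark a full endoplasmic reticulum stress element in Derl3 and its second form in Herpud1, and in Edem1 the separate CCAAT and CCACG letters, read on either strand. The windows are chr4:143353425-143353674 on the plus strand for Edem1, chr20:12766466-12766715 on the minus strand for Derl3 and chr19:10614708-10614957 on the minus strand for Herpud1.
Edem1: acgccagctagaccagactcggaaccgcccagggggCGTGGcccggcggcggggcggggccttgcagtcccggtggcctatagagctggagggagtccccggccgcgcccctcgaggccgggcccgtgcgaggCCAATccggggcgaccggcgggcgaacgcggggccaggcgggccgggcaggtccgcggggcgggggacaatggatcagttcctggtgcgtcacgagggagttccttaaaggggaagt
Derl3: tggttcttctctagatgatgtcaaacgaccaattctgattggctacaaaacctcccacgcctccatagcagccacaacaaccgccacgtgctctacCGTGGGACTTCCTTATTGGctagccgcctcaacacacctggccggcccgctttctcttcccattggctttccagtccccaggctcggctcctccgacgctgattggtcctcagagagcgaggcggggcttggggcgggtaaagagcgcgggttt
Herpud1: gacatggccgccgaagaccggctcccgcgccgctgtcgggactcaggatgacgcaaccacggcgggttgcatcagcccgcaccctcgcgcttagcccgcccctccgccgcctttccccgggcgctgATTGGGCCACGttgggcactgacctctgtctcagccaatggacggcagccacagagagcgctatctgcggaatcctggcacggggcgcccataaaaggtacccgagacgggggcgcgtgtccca

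The search covered both strands of windows from 250 bases before to 50 after the start. The stress element, CCAAT and CCACG with 9 bases of any kind between them, was present in 22 of 33469 promoters of this length (0.0657%), and among the 8 genes in that of Derl3, beginning 154 bases before the start. Its second form, ATTGG and CCACG with 1 base between them, was present in 17 promoters (0.0508%), and among the 8 in that of Herpud1, beginning 124 bases before the start. The letters TGACGTGG, the core of another element of the unfolded protein response, were in 199 promoters (0.595%) and in none of the 8. The short parts of the stress element are common: CCACG was in 31.6% of all promoters and 7 of the 8, and CCAAT in 37.5% of all and 7 of the 8. Both parts lie inside the full elements, so these counts overlap with them. The Edem1 window held CCAAT 117 bases before the start and CCACG, on the opposite strand, 214 bases before it. These matches describe letters and not binding.

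Nova1 mRNA was reduced in each batch. The Nova1 level, in reads scaled to the size of the library (CPM), was 20.6, 21.5 and 17.4 in the controls of batches 1, 2 and 3 and 7.76, 10.2 and 9.43 in the knockdowns. The groups did not overlap in CPM, but in RPKM they did, with a lowest control of 2.03 and a highest knockdown of 2.38. The fold change on the log2 scale was -1.12, with an SE of 0.11 and an adjusted p of 0.038 in limma with batch as a block. The adjusted p was 1.0 without the block and between 0.041 and 0.15 when 1 batch was left out. With limma-trend on log2(RPKM + 1) or log2(RPKM + 0.1) the Nova1 value was -0.54 or -0.73, and it did not pass (adjusted p = 0.33 for both). Among the marker lists of cell types used here, that of beta cells had the highest sum in all 6 libraries. Its 10 markers, mostly Ins1 and Ins2, summed to between 98043.8 and 244568.4 CPM, and G6pc2 was below 1 CPM in every library. Of 9 markers tested, 6 were negative and none passed. The sum was higher in the knockdown of batch 1 and lower in those of batches 2 and 3. Batch 2 had the lowest sum in both groups.

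Over all 15983 genes tested, 274 (1.71%) passed at an adjusted p below 0.05, 82 of them higher and 192 (1.20%) lower in the knockdown. Of the 10 ERAD genes, 3 passed, all lower: Edem1, whose lower level was known beforehand, and Derl1 and Derl3. Among the 9 without Edem1, 2 passed. As the list was made with earlier results of these data known, neither count is evidence about the pathway. The other 7 did not pass in either direction, with log2 fold changes between -0.06 and 0.18. The median over the 10 was -0.008 and over the 9 without Edem1 0.044, beside 0.004 over all genes. With scaling by library totals alone 0 of the 10 passed, and 91 of all genes did, 47 higher and 44 lower. All 10 genes kept the sign of their difference under each of the 3 scalings tried, but with library totals alone Os9 and Derl2 were each at -0.003.

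**Figure D1:**
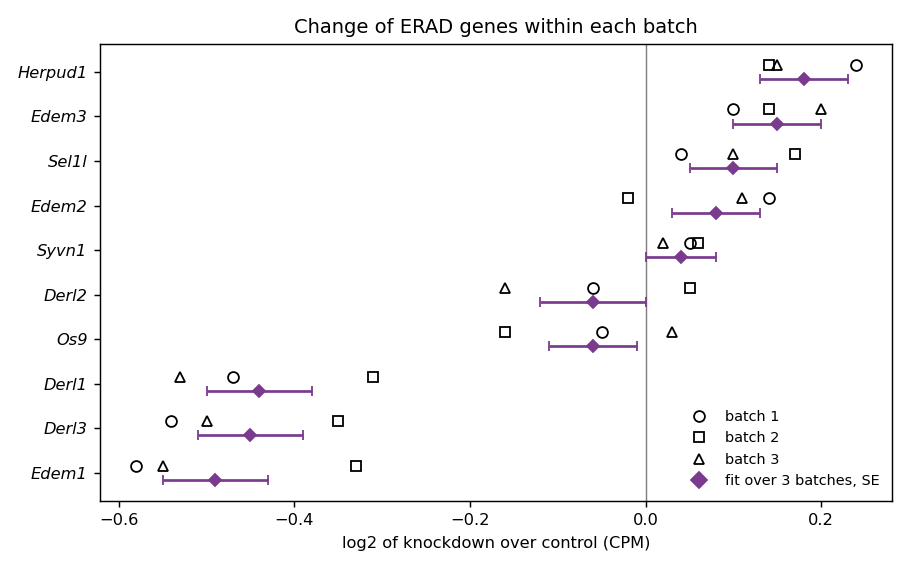
Change of the 10 ERAD genes within each batch, as log2 of knockdown over control CPM; open circles, squares and triangles are batches 1, 2 and 3, and filled diamonds with bars are the limma estimate with its SE. Edem1, Derl3 and Derl1 lie between -0.58 and -0.31 in all 3 batches, and the other 7 genes between -0.16 and 0.24.

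Edem1 recognises misfolded glycoproteins and speeds their release from the folding cycle into degradation. It was measured at 168.3, 219.0 and 198.3 CPM in the controls of batches 1, 2 and 3, and at 112.6, 173.7 and 135.6 CPM in the knockdowns. Every knockdown library lay below its own batch's control, but the knockdown of batch 2, the highest of its group, lay above the control of batch 1, so the groups overlap. The mean went from 195.2 ± 25.5 to 140.7 ± 30.8 CPM (SD, n = 3), a log2 fold change of -0.49 (SE 0.06), or -28.6%. The steps within batches were -0.58, -0.33 and -0.55 on the log2 scale, smallest in batch 2. The gene (XLOC_022119) spans chr4:217499180-217534849 of Rnor_5.0 on the plus strand. In bulk RNA, fewer cells that express a gene and less RNA per cell cannot be told apart, here and for all genes below.

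Edem2 and Edem3, the other Edem genes, did not pass the test, and Edem3 was higher in every batch. Edem2 starts the trimming of mannose from the glycan. Its level was 82.8, 94.4 and 86.0 CPM in controls and 91.3, 93.4 and 92.8 CPM in knockdowns, and its log2 fold change was 0.08, with an SE of 0.05 and an adjusted p of 0.40 in limma. The groups overlap, and batch 2 had the opposite sign of the other two. Edem3 trims mannose further. It was at 161.9, 227.9 and 155.0 CPM in controls and 173.5, 251.9 and 178.2 CPM in knockdowns, higher in the knockdown of all 3 batches by 0.10, 0.14 and 0.20 on the log2 scale. Its log2 fold change of 0.15 (SE 0.05) was not past the threshold in limma, at an adjusted p of 0.15, and 25.7% of all genes tested were higher in every batch. The genes lie at chr3:157597581-157623398 (minus strand) and chr13:74109839-74172429 (plus strand).

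The balance within the family can be read per length of transcript, from RPKM values (reads scaled to transcript length and to library size) summed per gene. The ratio of Edem1 to Edem2 was 0.828, 0.948 and 0.948 in controls and 0.503, 0.752 and 0.607 in knockdowns. The ratio of Edem1 to Edem3 was 1.34, 1.31 and 1.69 in controls and 0.946, 0.944 and 1.04 in knockdowns. Both ratios were lower in every knockdown library than in any control library, although the groups overlap for Edem1 itself. How many pairs of genes separate in this way was not counted. The known difference of Edem1 enters both ratios, so they are given without a test.

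Os9 is the lectin that reads the trimmed glycan and binds Sel1l. It was at 216.7, 236.1 and 182.5 CPM in controls and 210.0, 211.1 and 186.0 CPM in knockdowns. The groups overlap and the batches differ in sign, at -0.05, -0.16 and 0.03 on the log2 scale. The log2 fold change of -0.06 (SE 0.05) was not past the threshold in limma, at an adjusted p of 0.54. The gene lies at chr7:70556293-70584841 on the minus strand.

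The ligase genes had small positive differences in every batch, none of which passed. Sel1l, the scaffold of the complex, was at 422.7, 397.7 and 446.2 CPM in controls and 434.1, 446.1 and 477.5 CPM in knockdowns. The groups overlap, and the log2 fold change was 0.10 (SE 0.05, adjusted p = 0.27 in limma). Syvn1, the ubiquitin ligase itself, was at 111.9, 167.7 and 94.6 CPM in controls and 115.8, 174.6 and 96.1 CPM in knockdowns. In all 6 libraries its level followed the batch far more than the siRNA, with batch 2 the highest in both groups, and the log2 fold change was 0.04 (SE 0.04, adjusted p = 0.57 in limma). Herpud1, a stress-induced membrane protein that joins the ligase to its partners, was at 169.1, 165.8 and 142.8 CPM in controls and 200.1, 183.2 and 158.0 CPM in knockdowns. It had the highest log2 fold change of the 10 genes, with 0.24, 0.14 and 0.15 on the log2 scale in batches 1, 2 and 3. The log2 fold change of Herpud1 was 0.18 (SE 0.05, adjusted p = 0.12 in limma), and its groups overlap. The loci are chr6:124823937-124868493 (minus strand), chr1:228345143-228351660 (plus strand) and chr19:11027635-11037998 (minus strand).

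Of the derlins, membrane proteins related to rhomboid proteases that help substrates leave the endoplasmic reticulum, Derl1 and Derl3 fell and Derl2 did not pass. Derl1 was at 163.5, 116.0 and 185.8 CPM in controls and 118.0, 93.7 and 128.6 CPM in knockdowns. The knockdown was lower in each batch, by -0.47, -0.31 and -0.53 on the log2 scale, while the control of batch 2 lay below the knockdowns of the other batches. The log2 fold change was -0.44 (SE 0.06), which is -26.2%, and it passed in limma at an adjusted p of 0.046. Without batch 1, 2 or 3 the adjusted p of Derl1 was 0.18, 0.15 and 0.092, and without the batch block it was 1.0. The gene lies at chr7:98344162-98367041 on the minus strand.

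Derl3 had the lowest level of the 10 genes and varied most between batches. It was at 16.3, 48.0 and 21.5 CPM in controls and 11.3, 37.6 and 15.2 CPM in knockdowns. Both libraries of batch 2 stood above all others, so the groups overlap, but each knockdown was below its own control, by -0.54, -0.35 and -0.50 on the log2 scale. The log2 fold change was -0.45 (SE 0.06), which is -27.0%, and it passed in limma at an adjusted p of 0.046. Without batch 1, 2 or 3 the adjusted p of Derl3 was 0.18, 0.15 and 0.10, and without the batch block it was 1.0. It lies at chr20:15858311-15861826 on the minus strand, and 94 bases of its exons overlap exons of Smarcb1 on the other strand. The strand setting of the counting is not given in the sources used here, so reads from those bases cannot be assigned to either gene with certainty.

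Derl2, the third derlin, was at 60.6, 57.1 and 71.9 CPM in controls and 58.2, 59.0 and 64.2 CPM in knockdowns. The groups overlap and the batches differ in sign, at -0.06, 0.05 and -0.16 on the log2 scale. The log2 fold change was -0.06 (SE 0.06, adjusted p = 0.56 in limma). The gene lies at chr10:57386773-57398553 on the minus strand. Of all genes tested, 24.5% were lower in the knockdown of every batch, as were Edem1, Derl1 and Derl3 here. None of the 10 genes had groups that did not overlap, which 4.10% of all genes had in the lower and 3.96% in the higher direction.

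**Figure D2:**
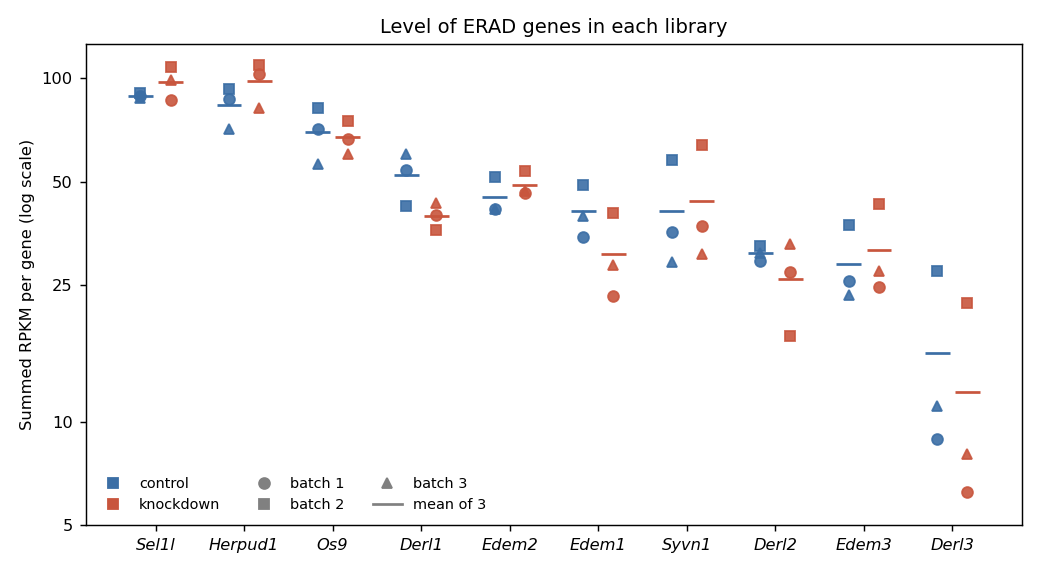
Level of the 10 ERAD genes in each library, as summed RPKM per gene on a log scale; blue is control, red is knockdown, the marker shape is the batch and the line is the mean of 3. Means run from 88.8 (Sel1l) to 15.8 RPKM (Derl3) in controls, and 8 of the 10 genes, all but Derl1 and Derl2, are highest in batch 2 of both groups.

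Per transcript length, the control means ran from Sel1l at 88.8 RPKM through Herpud1 (83.7), Os9 (69.7), Derl1 (52.1), Edem2 (45.0), Edem1 (40.9), Syvn1 (40.9), Derl2 (30.9) and Edem3 (28.8) to Derl3 at 15.8 RPKM. The ranges of every pair of neighbours in this order overlapped over the 3 control libraries. In the knockdown means Edem1 went from rank 6 to rank 8, at 30.7 RPKM, and Derl1 from rank 4 to rank 6, at 39.8 RPKM. In both groups, batch 2 differed from the other batches by more than the knockdown differed from the control for Derl3, Syvn1, Edem3 and Os9. In controls alone this also held for Derl1, Derl2, Edem2 and Sel1l. As the log2 of batch 2 over the mean of batches 1 and 3 in CPM, Derl3 was at 1.34 in controls and 1.51 in knockdowns. Syvn1 was at 0.70 and 0.72, Os9 at 0.24 and 0.09, and Edem3 at 0.52 in both groups. For Edem1 the batch values, 0.26 and 0.48, were no larger in size than its difference between the groups. Derl1 went the other way, at -0.59 in controls and -0.40 in knockdowns, so Edem1, Derl1 and Derl3 were not alike over the batches.

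Other cell types also contributed RNA, and some of their markers differed between the groups. Alpha cell markers were the most abundant, at 8165.9, 15013.6 and 11338.5 CPM in the controls of batches 1, 2 and 3 and 9678.4, 15960.2 and 13361.5 CPM in the knockdowns. Most of this was Gcg, followed by Slc7a2, the marker with a negative log2 fold change (-0.05). The alpha cell sum was higher in the knockdown of each batch, with 4 of 5 markers positive and none passing. In both groups it was highest in batch 2, as were Edem1, Edem2, Edem3, Os9, Syvn1 and Derl3 in CPM. Of 15 tested loci of acinar cell markers, 13 had a negative log2 fold change, with a median of -0.36, and 1 passed as lower. Their summed level was 757.5, 417.9 and 296.1 CPM in controls of batches 1, 2 and 3 and 568.8, 344.7 and 210.7 CPM in knockdowns. None of these markers was at 0 in a whole group, and the acinar transcription factors Ptf1a and Rbpjl were below 1 CPM in every library. The acinar sum was lower in the knockdown of each batch, as were Edem1, Derl1 and Derl3, and across batches it was highest in batch 1. Edem1 and Derl3 were lowest in batch 1, and Derl1 was lowest in batch 2. Stellate cell and fibroblast markers summed to between 37.4 and 81.7 CPM in controls and between 93.1 and 119.2 CPM in knockdowns, with 5 of 7 positive and 1 passing as higher. The collagens Col1a1, Col1a2 and Col3a1 made up most of that sum, while Pdgfra and Pdgfrb had log2 fold changes of -0.79 and -0.19. Immune cell markers summed to between 17.6 and 21.0 CPM in controls and between 16.2 and 28.0 CPM in knockdowns. The immune sum was higher in the knockdowns of batches 1 and 2 and lower in that of batch 3. The median was 0.79, with 6 of 8 positive, and 4 of these markers were below 1 CPM in every library. Of the 8, 1 passed as higher (Lyz2) and 1 as lower (C1qa, the highest of them in controls). Duct cell markers, mostly Krt7, summed to 238.0, 165.3 and 217.0 CPM in controls and 305.9, 181.1 and 274.9 CPM in knockdowns, with none passing. The duct sum was thus higher in the knockdown of each batch, as was Krt7. Krt19 was lower in each batch, with a log2 fold change of -0.18. Of 3 duct markers tested, 2 were positive and 1 negative. Sox9 and Cftr were below 1 CPM in every library. Delta and PP cell markers summed to between 432.1 and 893.7 CPM in controls and between 493.1 and 702.7 CPM in knockdowns. Endothelial cell markers summed to at most 4.44 CPM. No marker of these last lists passed. The part of all these cell types in the differences of the ERAD genes was not tested.

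Longer transcripts had higher log2 fold changes across genes (Spearman rho 0.33, across genes, which are not independent replicates). With a correction for length in the same blocked fit, chosen with this trend known, Edem1 was at -0.56. The adjusted p in limma was then 0.025 for Derl1, 0.036 for Derl3 and 0.059 for Herpud1. The other 6 genes apart from Edem1 had values of 0.24 or more. With the correction the log2 fold change of Edem3 went from 0.15 to 0.05 and that of Sel1l from 0.1 to 0.03. That of Herpud1 went from 0.18 to 0.21 and that of Edem2 from 0.08 to 0.1.

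The rest of the pathway was followed through 90 other ERAD genes, all of which were tested. Of these, 1 was higher and 0 were lower at an adjusted p below 0.05 in limma, beside 0.513% of all genes higher and 1.20% lower. Their log2 fold changes were positive in 41 and negative in 49, with a median of -0.01. With library totals alone as the scaling, 61 were positive and 29 negative and the median was 0.046, while the median of all genes was 0.058.

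The gene that rose was Usp25, a deubiquitinase that can rescue substrates from ERAD. It was at 17.2, 16.4 and 17.5 CPM in controls and 24.1, 21.8 and 28.6 CPM in knockdowns. All knockdown libraries lay above all controls. On the log2 scale Usp25 rose by 0.55, with an SE of 0.07 and an adjusted p of 0.046 in limma. Without 1 batch its adjusted p was between 0.081 and 0.18, and without the batch block it was 1.0. In the same group of 15 cytosolic factors the lowest value was that of Ubqln1, a shuttle to the proteasome, at -0.15 (SE 0.05, adjusted p = 0.14 in limma).

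The Vcp complex and its adaptors, which extract substrates from the membrane, had negative log2 fold changes in 12 of 15 genes, with a median of -0.071 and 9 lower in every batch. Of all genes tested, 7871 of 15983 were negative and 24.5% were lower in every batch. None of the 15 passed. Under library totals 11 of 15 were negative and the median was -0.017. Erlin1, a membrane scaffold for a ligase of the inositol trisphosphate receptor, was at 48.8, 45.2 and 52.1 CPM in controls and 37.0, 40.0 and 42.1 CPM in knockdowns. The Erlin1 groups did not overlap, and the log2 fold change of -0.30 (SE 0.06) had an adjusted p of 0.078 in limma (-0.33 and 0.041 with the length correction). Faf1, a Vcp adaptor, had the highest value of the group at 0.08 (SE 0.05, adjusted p = 0.37 in limma).

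Among 25 other ligases, conjugating enzymes and cofactors the median was 0.013 and none passed. Rnf170, the ligase that works with the erlins, had the lowest log2 fold change at -0.33 (SE 0.08, adjusted p = 0.11 in limma), from 33.7, 37.0 and 38.1 CPM in controls to 23.8, 34.1 and 29.9 CPM in knockdowns. Rnf5, another membrane ligase, had the highest at 0.35, but with an SE of 0.40. Its control of batch 2 held 4.72 CPM against 48.6 and 53.7 CPM in the other controls, and without batch 2 the log2 fold change was -0.1.

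Glycan trimming and calnexin cycle genes had a median of 0.012 over 11, none passing. Man1a2, a Golgi mannosidase, was at 0.15 (SE 0.05, adjusted p = 0.16 in limma), and Ganab, the catalytic subunit of glucosidase II, at -0.07 (SE 0.05, adjusted p = 0.45). Lectins, luminal chaperones and reductases had a median of -0.025 over 16, none passing. Hsp90b1, the luminal Hsp90, was at 867.5, 1587.3 and 787.7 CPM in controls and 905.4, 1621.5 and 901.1 CPM in knockdowns, highest in batch 2 of both groups, as was Syvn1. Its log2 fold change was 0.10 (SE 0.05, adjusted p = 0.32 in limma). Sdf2l1, a cofactor of the chaperone Hspa5, had the lowest log2 fold change of this group at -0.21 (SE 0.08, adjusted p = 0.19 in limma).

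Sensors and factors of the unfolded protein response, which induce many ERAD genes, had a median of -0.012 over 8, with none passing. Ern1, the sensor that splices Xbp1 mRNA, had the lowest log2 fold change at -0.17 (SE 0.07, adjusted p = 0.21 in limma), with the control of batch 3 (136.1 CPM) as low as the knockdowns. With the length correction Ern1 was at -0.28 with an adjusted p of 0.038 in limma. DDIT3, a factor of prolonged stress, was at 35.3, 19.6 and 32.3 CPM in controls and 38.7, 16.8 and 35.6 CPM in knockdowns, and its log2 fold change was 0.04, with an SE of 0.08 and an adjusted p of 0.78 in limma.

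**Figure D3:**
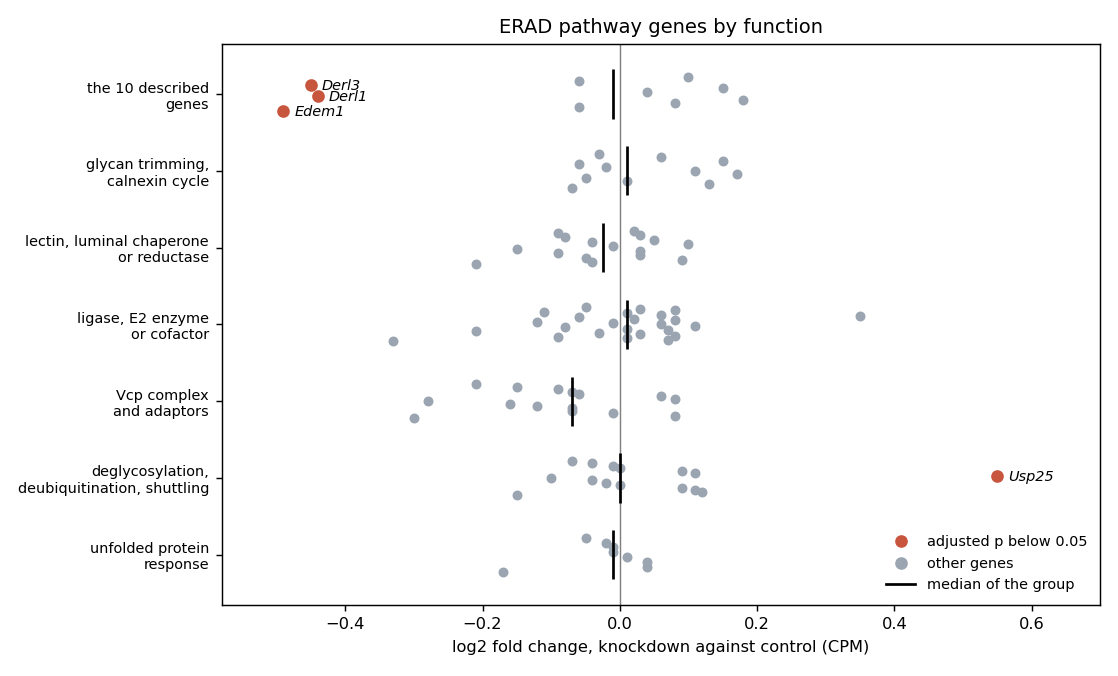
Log2 fold change of knockdown against control for the 10 ERAD genes and 90 other genes of the pathway, by function; each point is a gene, red marks an adjusted p below 0.05 in limma and the vertical bar is the group's median. The medians of the 7 groups lie between -0.071 and 0.013, and Usp25 at 0.55 is the highest point.

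The genes whose profile over the 6 libraries lay nearest to Edem1 were found by the Euclidean distance of centred log2 CPM among 10799 named genes of at least 1 RPKM in a group. Plekha1, a phosphoinositide-binding adaptor, and RGD1562608 were nearest, both at a distance of 0.15. Lmbrd2, a membrane protein, followed at 0.20. Plekha1 was at 30.5, 36.5 and 31.7 CPM in controls and 20.1, 29.4 and 22.4 CPM in knockdowns. The other ERAD genes lay farther away, from rank 2030 for Os9 to rank 5644 for Derl1 and rank 8139 for Derl3. Derl1 and Derl3 were lower in the same libraries as Edem1, but their levels over the batches differed from its own.

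Transcript use within the 10 genes gave no call. Of their 35 transcripts, 31 entered the test of shares (limma diffSplice with the batch block), and 0 passed, beside 55 of 31429 transcripts (0.175%) over all genes. The smallest adjusted p was 0.56, for the pair of Derl1 transcripts, whose unadjusted p was 0.0297, and no other transcript of the 10 genes was below an unadjusted p of 0.05. Edem2 and Syvn1 have 1 transcript each. Of the 35, 12 were listed at 0 in at least 1 library, and an estimate at 0 can be a failed division of reads between similar transcripts.

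The lower level of Edem1 was shared by its main transcripts. The reference transcript of 12 exons took 53.8%, 54.5% and 55.1% of the gene's RPKM in controls and 53.7%, 51.0% and 56.3% in knockdowns. A transcript of 11 exons took 38.3%, 40.2% and 36.1% in controls and 36.6%, 41.1% and 35.7% in knockdowns. It has its own first exon of 33 bp (chr4:217509139-217509171), lacks a 74 bp internal exon (chr4:217523854-217523927) and ends in an exon of 6293 bp in place of 90 bp. In RPKM the first went from 18.6, 26.6 and 21.8 to 12.5, 20.6 and 16.0, and the second from 13.2, 19.6 and 14.3 to 8.51, 16.6 and 10.2.

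The 2 transcripts of Derl1 differed between batches in how they shared its lower level. The newly assembled transcript of 9 exons was at 30.6, 9.28 and 20.0 RPKM in controls and 9.71, 6.31 and 12.5 RPKM in knockdowns. The reference transcript of 8 exons was at 23.4, 33.1 and 39.9 RPKM in controls and 30.2, 29.9 and 30.9 RPKM in knockdowns. The share of the 9-exon transcript was 56.6%, 21.9% and 33.4% in controls and 24.3%, 17.4% and 28.7% in knockdowns, lower in each batch but with overlapping groups. In batch 1 the 9-exon transcript was lower and the reference transcript higher in the knockdown, while in batches 2 and 3 both were lower. The mean difference in share was -13.8 percentage points over the 3 batches and -4.55 without batch 1. It differs by a break in the last exon, between chr7:98344698 and chr7:98344750, and by a longer first exon, of 360 in place of 201 bp. The difference in share did not pass, as given above.

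The reference transcript of Derl3, of 8 exons, led in all 6 libraries, at 47.2 ± 2.16% in controls and 45.6 ± 4.9% in knockdowns (SD, n = 3). In the knockdown of batch 2 the third Derl3 transcript, at 40.1%, lay just below it at 41.2% and above the second at 18.7%. Herpud1 has 2 transcripts that differ in the first exon, of 260 bp (chr19:11037739-11037998) or 67 bp (chr19:11036796-11036862). The first took 81.6%, 80.0% and 82.9% in controls and 89.7%, 76.0% and 84.0% in knockdowns, so the batches differ in sign. Os9 was mostly the reference transcript, at 80.6 ± 2.53% in controls and 76.3 ± 3.07% in knockdowns, which holds a 165 bp internal exon (chr7:70559273-70559437) that the next transcript lacks. Sel1l was divided over 5 transcripts, led by the reference transcript of 21 exons at 43.3 ± 1.53% and 41.2 ± 2.91%, and followed by a model of 2 exons at the end of the gene at 21.6 ± 1.21% and 24.6 ± 2.91%.

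The shares of Edem3 and Derl2 transcripts varied widely between libraries. The leading Edem3 pair differs by 3 bp at exon 16, whose length is 157 or 154 bp, and took 31.1%, 34.4% and 23.2% against 22.3%, 30.7% and 24.6% in controls. The same pair took 48.1%, 29.9% and 44.3% against 49.0%, 29.5% and 15.1% in knockdowns. The leading Derl2 transcript took 28.7%, 0.741% and 45.8% in controls and 44.9%, 98.9% and 12.9% in knockdowns. Of the 6 Derl2 transcripts, 5 were listed at 0 in a library, although the gene as a whole stayed between 57.1 and 71.9 CPM. In summed RPKM it was less steady, at 29.4, 32.5 and 30.9 in controls and 27.3, 17.8 and 32.9 in knockdowns. With limma-trend on log2(RPKM + 1) or log2(RPKM + 0.1) the log2 fold change of Derl2 was -0.28 or -0.29 (adjusted p = 0.44 for both).

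**Figure D4:**
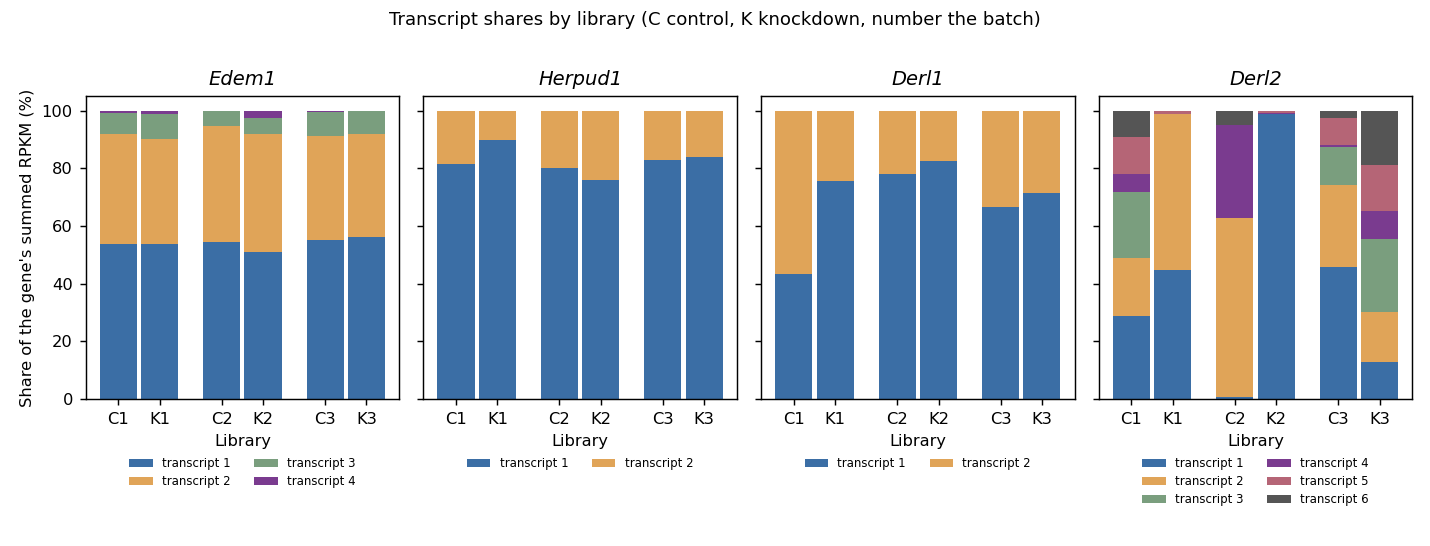
Share of each transcript in the summed RPKM of Edem1, Herpud1, Derl1 and Derl2, in percent, by library (C control, K knockdown, numbered by batch); transcripts are ordered by mean share. Edem1 shares are nearly level over the 6 libraries, the lower part of Derl1 is larger in each knockdown than in its control, and Derl2 runs from 0.741% to 98.9% for its leading transcript.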

How the data were processed

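RNA of sorted rat beta cells was sequenced in 6 libraries, grouped and numbered by batch from their titles. Per the submitters' processing notes, the reads were aligned with TopHat to the Rnor_5.0 build. The authors deposited, in text attributes per transcript and library, estimated read counts, lengths and RPKM. Which program assigned reads to transcripts, and whether by strand, is not given in the sources used here. Because the reads are not whole and are held as text, a model for whole counts was not used.

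Reads were summed per gene model (a locus and a name), with library totals of 95394043 to 292432076. They were scaled by an own implementation of trimmed-mean scaling, leaving out 30% of log ratios and 5% of mean levels, which gives the CPM printed. A gene was tested if at least 3 libraries reached 10 reads at median depth and all libraries together reached 15. All genes were fitted with limma's voom (version 3.58.1, R version 4.3.3) and a block for batch, which leaves 2 residual degrees of freedom, with Benjamini-Hochberg adjustment and a threshold of 0.05. Transcript shares were tested with diffSplice in the same way. Deviations from the group mean correlated between the libraries of a batch at 0.58, 0.87 and 0.78, and the titles give the pairing. The scripts were tested on simulated data. Columns of other samples were not present.

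Promoter sequences came from a RefSeq table on GRCr8. The 10 genes, the 90 other ERAD genes and the marker lists were chosen with earlier results of these data known. Of the other ERAD genes, those called and the highest and lowest of each functional group with at least 1 RPKM are named, with the 2 leading transcripts of each of the 10 genes and the 3 genes nearest to Edem1. Alternatives were no block, leaving out each batch, other scalings and filters, limma-trend on log2(RPKM + 1) or + 0.1, a length correction, and summing all loci of a name.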

Additional observations from a re-analysis of the deposited data

How the results depend on the processing

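Edem1, Derl1 and Derl3 had a negative log2 fold change in all 12 alternatives, between -0.56 and -0.42, -0.50 and -0.37, and -0.52 and -0.39. Derl1 and Derl3 passed in limma in 4 and 3 of them (adjusted p from 0.025 and 0.036 to 1.0). The call of Edem1, whose lower level was known beforehand, held in only 4 and is given as a description. Of the 10 ERAD genes, 0 passed without the replicate block, with a batch left out (0 to 0) or with library totals alone. The count was also 0 with the filter 5 times stricter and with limma-trend on log2(RPKM + 1) or log2(RPKM + 0.1). The fit as reported had 3, Edem1 included. With 2 residual degrees of freedom, and adjusted p-values of called genes between 0.036 and 0.05, calls depend on small changes in the fit, and the cause of each lost call was not tested.

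Over all genes the calls numbered 274 as reported and 0 without the replicate block (521 at an unadjusted p below 0.05). They numbered 0 to 65 with a batch left out (0 without batch 2, with 2804 at an unadjusted p below 0.05), 91 with library totals alone, 174 with no filter, 119 with the stricter filter, 0 with limma-trend on log2(RPKM + 1) or + 0.1 (3193 and 3111 unadjusted) and 622 with the length correction. Of the 90 other ERAD genes the count was 1 as reported and 0 without the replicate block, with a batch left out (0 to 0), with no filter, with the stricter filter and with limma-trend on either RPKM scale, and 4 with the length correction. Share calls over all transcripts were 55 with the replicate block, 97 without it, 0 to 2 with a batch left out, 115 on log2(RPKM + 0.1), 25 for transcripts of at least 10% of their gene and 24 with the stricter filter, and 0 for the 10 genes in each of these 7 alternatives. Shares taken from reads in place of RPKM gave values with no test.

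With a batch left out, the sign turned for DDIT3 (log2 fold changes from -0.01 to 0.14) and Rnf5 (from -0.1 to 0.67), both uncalled. The difference in share, in percentage points and never called, turned for the reference Edem1 transcript (-1.85 to 0.506), the 11-exon Edem1 transcript (-1.03 to 0.229), the shorter of the leading Edem3 pair (-5.39 to 12.7) and the Herpud1 transcripts (-1.4 to 4.61 and -4.61 to 1.4). It also turned for the second Os9 transcript (-0.866 without batch 1, and -1.66 to 6.66 in all), the leading Sel1l transcript (-3.53 to 0.316), the second Derl3 transcript (-5.93 to 0.245) and both leading Derl2 transcripts (-8.38 to 57.2 and -36.5 to 11.3).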
